A study of Mus musculus with 4 samples.

Results

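Late transcripts were looked for in RAW264.7 cells, a mouse macrophage-like cell line, that were stimulated with 1 µM ODN1826. These are transcripts whose signal lay below the background limit of the array at 0 h and 4 h and above it at 8 h and 16 h. ODN1826 is a synthetic oligonucleotide with unmethylated CpG motifs. RNA was taken after 0, 4, 8 or 16 h with the oligonucleotide, and each time point was measured on 1 Agilent 1-colour array that carries mRNA and lncRNA probes. A probe was counted as late when every one of its spots was dim at 0 h and 4 h, every spot was well above background at 8 h and 16 h, and its level at 16 h exceeded that at 0 h by over 2 on the log2 scale. The level is the mean log2 intensity of the spots, relative to the 75th percentile of its array. Of 96963 probes, 168 were late. Of these, 60 were mRNA probes and 108 were lncRNA probes, which is 0.154% of the 39027 mRNA probes and 0.186% of the 57936 lncRNA probes. With normexp background correction and an offset of 50 in place of the scanner's own correction, 3 mRNA and 1 lncRNA probes met the rule. This offset is large beside the intensities of most late probes and by itself shrinks their differences. Probes of curated RefSeq noncoding RNAs were left out by the rule.

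All 4 arrays were of the same cell line with the same dose, so by their labels the time points differed only in hours. Each time point is also its own array, and differences between preparations or arrays cannot be told apart from time. No unstimulated culture was measured at 4, 8 or 16 h, and stimulation and time in culture cannot be told apart. With 1 array per time point there is no spread between cultures and no p-value. The arrays lay on 1 slide and were read in 1 scan, no spot was saturated, and between 70.9% and 73.3% of all probes had every spot above the background limit. The 75th percentile of intensity fell from 531 at 0 h to 440 at 16 h. No gene name goes with the mRNA probes in these files. The macrophage markers of the cell line could therefore not be looked at, and no list of inflammatory, interferon or other genes could be counted among the mRNA probes.

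CpG DNA is taken up into endosomes, where TLR9 binds it and signals through MyD88 to NF-κB and AP-1. The first genes to respond in a macrophage, such as those of TNF-α and many chemokines, need no new protein synthesis. Later genes depend on factors made or secreted in the first wave, among them type I interferon and newly made transcription factors, or on the remodelling of their chromatin. Long noncoding RNAs are transcribed in both waves, often beside or across from a protein-coding gene.

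Of the late lncRNA probes, 9 could be paired with a gene of the RefSeq table of GRCm38.p6, 7 by accession and 2 by the name of a RIKEN cDNA clone. Of the 9 promoters that RefSeq gives for 6 of these genes, 4 are shown: the pair that held a match to a motif searched, and those of Gm30797 and Gm32148 as examples with no match. The choice was made after the search. Each runs from 250 bases before to 50 bases after the annotated start, on the strand given, and capitals mark a match to an interferon-stimulated response element or to a CpG hexamer as spelled out after the sequences.
Gm30797, chr2:181015647-181015946, minus strand, GRCm38.p6: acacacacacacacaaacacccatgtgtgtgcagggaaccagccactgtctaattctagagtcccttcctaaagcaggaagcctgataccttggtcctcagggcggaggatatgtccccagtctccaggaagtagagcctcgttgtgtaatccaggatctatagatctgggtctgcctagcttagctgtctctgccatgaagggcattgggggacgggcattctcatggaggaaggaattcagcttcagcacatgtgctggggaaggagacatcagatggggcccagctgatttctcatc
Gm32148, chr3:116952860-116953159, plus strand, GRCm38.p6: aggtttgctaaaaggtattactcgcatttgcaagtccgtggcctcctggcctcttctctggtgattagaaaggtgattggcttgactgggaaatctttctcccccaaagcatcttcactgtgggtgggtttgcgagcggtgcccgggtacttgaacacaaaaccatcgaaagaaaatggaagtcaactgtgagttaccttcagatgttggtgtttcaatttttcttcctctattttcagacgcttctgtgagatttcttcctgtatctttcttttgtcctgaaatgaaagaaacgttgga
Gm33582, chr14:60171397-60171696, plus strand, GRCm38.p6: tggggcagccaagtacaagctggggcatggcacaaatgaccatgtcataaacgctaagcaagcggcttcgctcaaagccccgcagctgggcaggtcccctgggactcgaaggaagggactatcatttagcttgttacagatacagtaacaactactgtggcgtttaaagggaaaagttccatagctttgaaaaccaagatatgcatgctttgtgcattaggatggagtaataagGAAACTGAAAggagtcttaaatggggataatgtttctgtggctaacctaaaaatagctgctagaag
Syne4, chr7:30314566-30314865, plus strand, GRCm38.p6: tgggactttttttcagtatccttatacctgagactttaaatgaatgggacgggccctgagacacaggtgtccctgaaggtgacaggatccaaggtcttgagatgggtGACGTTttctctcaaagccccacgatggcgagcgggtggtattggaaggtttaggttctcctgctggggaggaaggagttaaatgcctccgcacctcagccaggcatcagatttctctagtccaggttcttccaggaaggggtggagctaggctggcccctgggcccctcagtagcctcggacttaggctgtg

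All 9 promoters were searched on both strands for the NF-κB consensus, the interferon-stimulated response element GAAANNGAAA, the AP-1 site TGANTCA and the CpG hexamer GACGTT. The motifs do not overlap each other in the matches found. The interferon element was found in 1 of the 9, the first promoter of Gm33582, and it occurs in 3.44% of all 32851 promoters of the table. The CpG hexamer was found in the promoter of Syne4 alone, against 4.00% of all promoters. The NF-κB consensus and the AP-1 site matched none of the 9, and they occur in 4.51% and 7.81% of all promoters. A match describes the letters of this window and no binding was measured.

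The word absent is not used here for the late probes before 8 h. The scanner has a looser mark as well, for a spot whose signal is significantly above its local background. At 0 h, 42 of the 60 late mRNA probes and 88 of the 108 late lncRNA probes had a spot with this mark, and at 4 h 49 and 89 had one. How many other dim probes carry this mark was not counted, so these counts do not show that the transcripts were present. The median intensity at 0 h was 3.95 for the late mRNA probes and 4.79 for the late lncRNA probes. Over the 18736 probes that were never above the limit it was 2.92, and it stayed between 2.92 and 3.18 on the later arrays. Those probes were chosen for being dim on every array, so their low median is in part fixed by that choice. The late transcripts are described only as below the background limit, and every fold change against 0 h or 4 h is a lower bound. The bound was taken against the lowest level among probes with every spot above the limit on the dim array, or against the probe's own level where that was higher. Intensities are given as scanned, and folds and bounds after the scaling by the 75th percentile. That lowest level corresponded to an intensity of 12.9 at 0 h and 13.9 at 4 h.

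**Figure D1:**
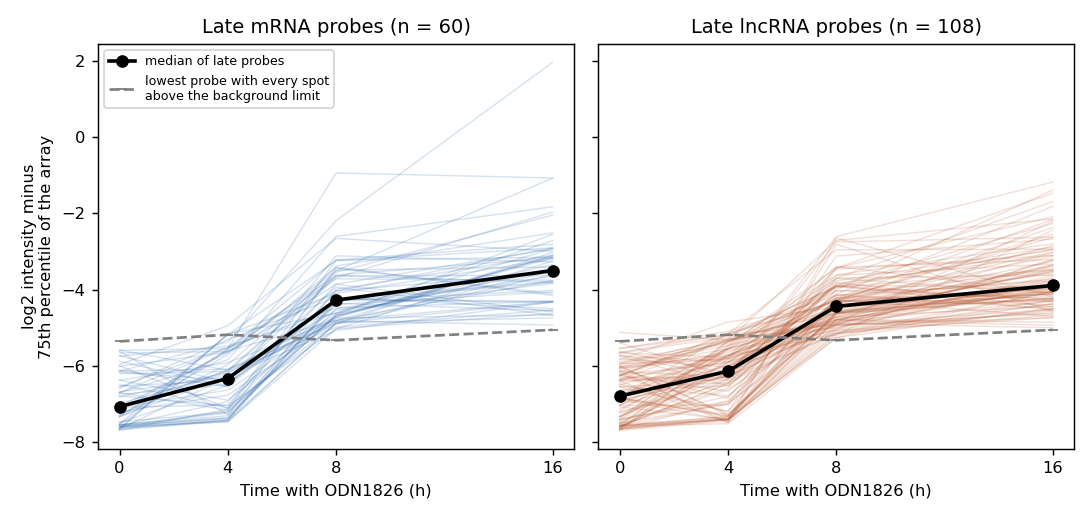
Level of each late probe (log2 intensity relative to the 75th percentile of its array) against hours with ODN1826, for 60 mRNA and 108 lncRNA probes. Thin lines are probes, the black line is their median, and the dashed line is the lowest level of a probe with every spot above the background limit. The medians lie below that line at 0 h and 4 h and above it at 8 h and 16 h, as the rule requires, and 1 mRNA probe ends far above the rest.

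At 8 h the late mRNA probes had a median intensity of 25.5, with a range from 14.7 to 257. At 16 h their median was 38.8, from 14.4 to 1708. The late lncRNA probes had a median of 22.7 at 8 h, from 12.9 to 80.8, and of 29.6 at 16 h, from 13.8 to 194. On the level scale the medians at 16 h were -3.50 for mRNA and -3.89 for lncRNA, so that the typical late transcript of either class stayed far below the 75th percentile of its array.

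The bound on the change from 0 h to 16 h had a median of 3.62-fold for mRNA and of 2.76-fold for lncRNA. It exceeded 4-fold for 27 of the 60 mRNA probes and for 33 of the 108 lncRNA probes. Among all probes dim at 0 h and above background at 16 h, the same was true of 24.4% of mRNA and 13.2% of lncRNA probes. Over all probes, 2.33% of mRNA and 1.9% of lncRNA probes had a log2 difference over 2 between 16 h and 0 h. The rule uses this contrast, so nothing is read from these shares. Against 4 h the median bounds at 16 h were 3.21-fold for mRNA and 2.45-fold for lncRNA. By 8 h the bound over 0 h exceeded 2-fold for 32 of the 60 mRNA and 51 of the 108 lncRNA probes, beside 38.8% and 30.2% of all probes dim at 0 h and above background at 8 h. For 4 lncRNA probes, each with 1 spot, the bound of 8 h over 4 h was under 1 and no fold is given.

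The mRNA probe with the highest bound was A_55_P2174582. Its intensity was 7.52 before stimulation, 12.2 after 4 h, 108 after 8 h and 1708 after 16 h. Relative to 0 h the rise was at least 8.96-fold by 8 h and at least 159-fold by 16 h, and the spots differed by an SD of 0.0043 on the log2 scale at 16 h. It is the 1 late probe whose level passed the 75th percentile of its array, at 1.96. The next was A_51_P215559, with intensities of 11.0, 10.7, 257 and 209 at 0, 4, 8 and 16 h. It had reached its full level by 8 h, a rise of at least 21.3-fold over 0 h, against at least 19.5-fold by 16 h. These probes followed different courses after 8 h, a further rise of 17.8-fold for the first and a log2 difference of -0.13 for the other. Next in order was an mRNA probe with intensities of 8.23, 10.1, 43.5 and 208 whose rise from 0 h to 16 h was at least 19.4-fold.

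The lncRNA with the highest bound was the Ensembl transcript ENSMUST00000186238. Its intensity was 4.10 before stimulation, 6.55 after 4 h, 80.8 after 8 h and 194 after 16 h. Relative to 0 h the rise was at least 6.71-fold by 8 h and at least 18.1-fold by 16 h, and its spots had an SD of 0.21 at 16 h. NONMMUT060982 of the NONCODE catalogue has 1 spot, with intensities of 5.63, 3.43, 30.8 and 168, and was at least 15.7-fold higher at 16 h. Both rose again between 8 h and 16 h, by 2.69-fold and 6.12-fold.

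The RefSeq model transcript XR_872693.1, which was paired with no gene, went from 4.52 and 2.90 at 0 h and 4 h to 38.0 and then 136 at the later times, at least 12.7-fold over 0 h. NONMMUT000064 went from 3.30 and 7.50 to 28.4 and 125, at least 11.7-fold. The RIKEN clone 4930580E04 went from 8.11 and 11.4 to 45.6 and 103, at least 9.65-fold. In each of these the 16 h level was the highest of the series. Clone A830038P13, with 1 spot, rose mostly by 8 h, with intensities of 8.96, 12.6, 75.4 and 99.1.

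**Figure D2:**
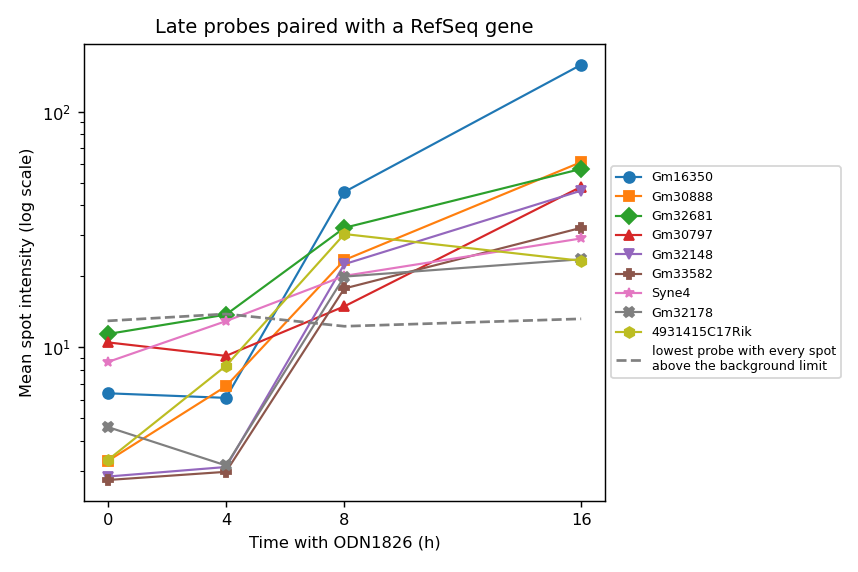
Mean spot intensity (log axis) against hours with ODN1826 for the 9 late probes paired with a RefSeq gene, with the lowest probe above the background limit as a dashed line. Gm16350 reached the highest intensity, 158 at 16 h, and 4931415C17Rik is the 1 line that is lower at 16 h than at 8 h.

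Among the late lncRNAs with a gene, Gm16350 had the highest level. Its locus overlaps the protein-coding gene Arhgef10. Its intensity was 6.38 before stimulation, 6.10 after 4 h, 45.6 after 8 h and 158 after 16 h. The rise over 0 h was at least 3.79-fold by 8 h and at least 14.7-fold by 16 h. Between 8 h and 16 h it rose 3.89-fold, with spot SDs of 0.19 at 8 h and 0.16 at 16 h on the log2 scale.

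Gm30888 overlaps Grhl3, which encodes a grainyhead-like transcription factor of epithelia. Its intensities were 3.29, 6.84, 23.5 and 61.1 at 0, 4, 8 and 16 h. Gm32681 overlaps Layn, the gene of layilin, a hyaluronan receptor, and its intensities were 11.4, 13.8, 32.1 and 57.1. Gm30797 overlaps the collagen gene Col20a1 and had intensities of 10.5, 9.20, 14.9 and 48.0. It stood barely over the limit at 8 h and gained most of its signal afterwards. Gm32148, whose locus overlaps the palmdelphin gene Palmd, had intensities of 2.83, 3.11, 22.5 and 46.2.

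The other probes with a gene were dimmer at 16 h. Gm33582, whose nearest protein-coding gene is the nucleoporin gene Nupl1, had intensities of 2.74, 2.96, 17.8 and 32.1. The clone that RefSeq lists under Syne4, the gene of the nuclear envelope protein nesprin-4, had 8.66, 12.9, 20.1 and 29.0. This probe is the 1 of the 9 whose gene is protein-coding, and it also lies just inside the limit of the rule. The clone listed under 4931415C17Rik, across Tubgcp3 of the gamma-tubulin complex, had 3.32, 8.35, 30.2 and 23.3. It was the 1 of these 9 that was not brightest at 16 h.

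Gm32178, near the signal peptidase gene Sec11a, showed how a late call depends on the probe. Its late probe had intensities of 4.59, 3.15, 20.0 and 23.6 at 0, 4, 8 and 16 h. A further probe for another transcript of the gene had both spots above the background limit on all 4 arrays, with intensities of 16.0, 22.3, 45.7 and 81.7. Its log2 difference between 16 h and 0 h was 2.63. A transcript of the gene thus gave a signal above the limit at 0 h, though close to it. The lowest probe above the limit on that array had an intensity of 12.9. The further probe was brighter at each later time point. None of the other 8 genes had another probe that could be matched.

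Of the 9 late probes with a gene, 6 (66.7%) overlapped another, protein-coding gene in RefSeq, against 1333 of the 5072 lncRNA probes with a gene (26.3%). With 9 probes this is a description only. For 3 of the 6, Gm30797, Gm32681 and 4931415C17Rik, the table gives a strand for both genes, and in each the strands were opposite. How often this holds over all overlapping lncRNA probes was not counted, so nothing is read from it. The strand that each probe reads was not analysed here. The nearest protein-coding gene of the 9 was in none of the 18 lists of inflammatory, interferon, stress, proliferation, osteoclast, cell type or reference genes, which hold 267 genes. Over the 5072 lncRNA probes with a gene, 64 (1.26%) had a listed neighbour.

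The 2 classes were compared over matched probes, because every mRNA probe was spotted 2 times while 19325 lncRNA probes were spotted 1 time and had to pass the rule only once. Among probes spotted 2 times, 60 of 39027 mRNA probes (0.154%) and 58 of 38611 lncRNA probes (0.150%) were late. Among lncRNA probes with 1 spot, 50 (0.259%) were late. The higher share of lncRNA over all probes therefore lay with the probes that have 1 spot. Of the probes that were below the limit at 0 h and 4 h, which could have become late, 60 of 6553 mRNA probes (0.916%) and 58 of 9789 lncRNA probes with 2 spots (0.593%) did. No test was made, since probes are not replicates and there was 1 array per time point.

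**Figure D3:**
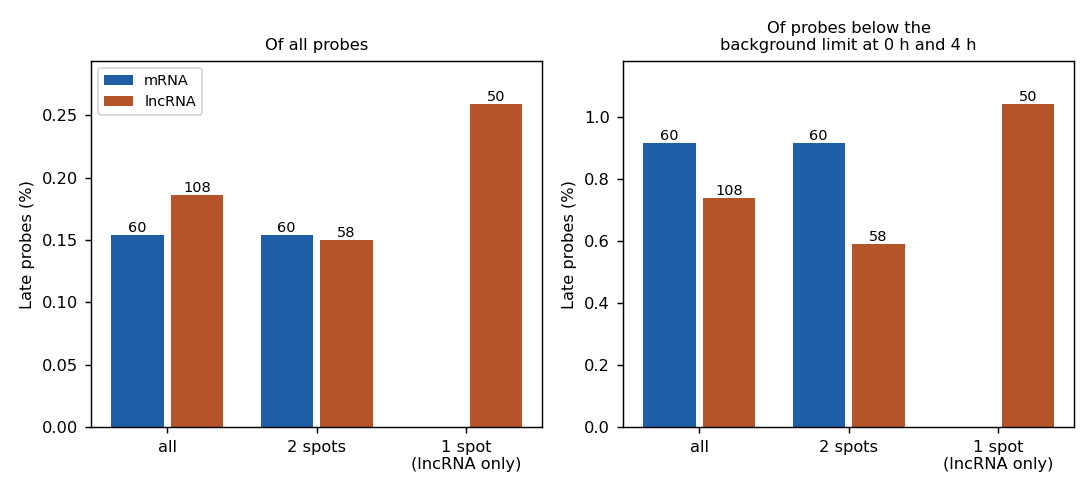
Percentage of probes that were late, by class and number of spots, of all probes (left) and of those below the background limit at 0 h and 4 h (right), with the number of late probes over each bar. With 2 spots the bars of the classes stand at 0.154% and 0.150% on the left and at 0.916% and 0.593% on the right.

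Late lncRNA probes came from every large catalogue on the array. NONCODE gave 52 of the 108, or 48.1%, and makes up 49.7% of the lncRNA probes. RIKEN clones gave 31, or 28.7% against 27.1%, and RefSeq models gave 22, or 20.4% against 21.0%. These catalogues differ in how many of their probes have 2 spots, and among such probes 26 of 20534 of NONCODE (0.127%), 8 of 4967 RIKEN clones (0.161%) and 22 of 12146 RefSeq models (0.181%) were late. The remaining 3 were 2 Ensembl transcripts and uc.mouse.125, a transcript of a catalogue named uc.mouse in the files, which had intensities of 6.93, 12.5, 21.8 and 29.7. The spots of late probes were spread over the array, with between 31 and 39 of them in each eighth of its surface.

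The reproducibility that the arrays can show is that between spots of a probe, which covers neither cultures nor labelling reactions. When probes were chosen by the first spot alone, 96 mRNA and 104 lncRNA probes with 2 spots met the rule. The second spot, which this choice did not use, met it too for 53 (55.2%) and 46 (44.2%). Over all probes with 2 spots, the second spot met the rule in 0.243% and 0.228%. In the opposite order 95 mRNA and 88 lncRNA probes were chosen, of which 53 (55.8%) and 46 (52.3%) met the rule in the first spot. These are by construction the same probes, so the opposite order is no second check.

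Parts of the rule were also counted separately, over all chosen probes, those that met the whole rule included. Of the 96 mRNA probes chosen by the first spot, 79 had a second spot above background at both 8 h and 16 h, and 71 (74.0%) had a log2 difference over 2, against 2.59% of all mRNA probes. Of the 104 lncRNA probes these numbers were 84 and 62 (59.6%), against 2.13% of all lncRNA probes with 2 spots. The median log2 difference between 16 h and 0 h in the second spot was 2.69 for mRNA and 2.50 for lncRNA.

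**Figure D4:**
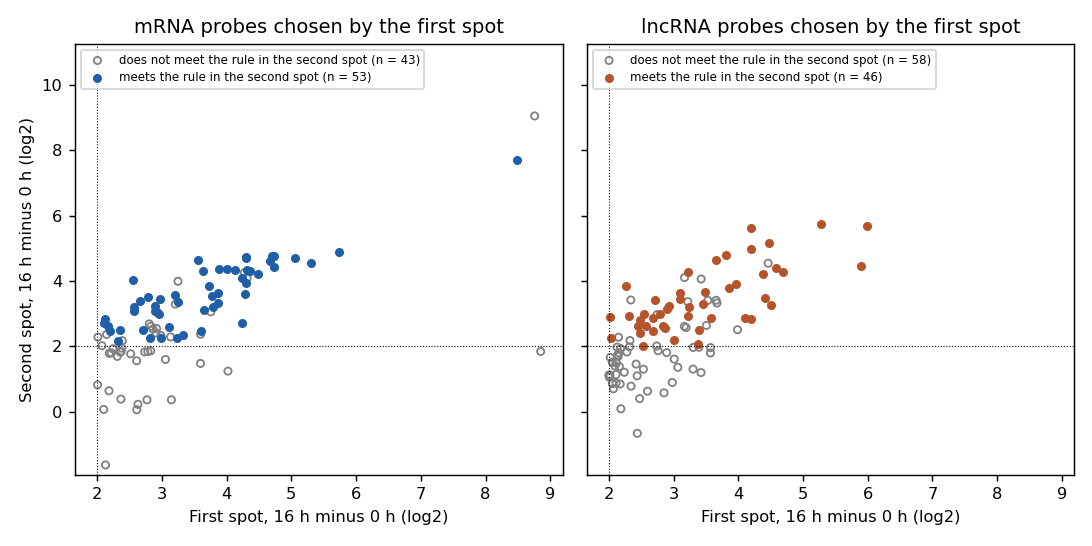
Log2 difference between 16 h and 0 h in the second spot against that in the first, for 96 mRNA and 104 lncRNA probes chosen by the first spot alone, with dotted lines at the limit of 2. Filled points, 53 and 46, meet the whole rule in the second spot as well, and most open points lie near the lower left of each panel.

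The SD between spots of late mRNA probes had a median of 0.20 at 8 h and 0.14 at 16 h on the log2 scale, and that of late lncRNA probes 0.20 and 0.13. Other probes in the range of levels of the late probes, not matched probe by probe, had 0.15 at 8 h in both classes. At 16 h they had 0.12 for mRNA and 0.13 for lncRNA. At 8 h, the time at which they first passed the limit, the late probes had the wider spread. For 1 late mRNA probe the spots differed widely at 16 h, and the bright spot, marked by the scanner as an outlier, was left out of its level.

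After 8 h most late transcripts were higher still. Both arrays lie above background here, so these differences are measured and not bounds. The log2 difference between 16 h and 8 h had a median of 0.49 for the 60 mRNA probes, with quartiles of 0.06 and 1.31, and of 0.66 for the 108 lncRNA probes, with quartiles of 0.25 and 1.16. It was above 0 for 46 mRNA (76.7%) and 92 lncRNA probes (85.2%), beside 53.8% of all mRNA and 49.0% of all lncRNA probes above background at both times. By more than 2-fold, 20 mRNA and 35 lncRNA probes were higher at 16 h, beside 2.43% of all mRNA and 2.36% of all lncRNA probes above background at both times. By more than 2-fold, 0 mRNA and 2 lncRNA probes were lower, beside 3.53% and 2.31%. Since the rule demands a high level at 16 h, it favours a rise, and the count is a description. With normexp background correction the medians over the same probes were 0.29 and 0.31.

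Other probes above background at both times were taken if their 8 h level lay between -5.08 and -2.86. These limits are the 5th and 95th percentiles of the late probes, and levels were not matched probe by probe. Over these other probes the median log2 difference was 0.09 for mRNA and 0.06 for lncRNA. Of these, 59.0% of the mRNA and 55.2% of the lncRNA probes were higher at 16 h, and 4.44% and 3.92% were so by over 2-fold. The scanner gives an error for each spot, and these errors were combined over the spots of a probe and over both arrays. The rise exceeded 1.96 times the combined error for 36 of the 60 mRNA and 64 of the 108 lncRNA probes, while 5 probes of each class fell by more than that. Among the other probes in this range, 24.1% of mRNA and 19.6% of lncRNA probes were higher by more than 1.96 times this error. Lower by more than it were 558 of the 4418 mRNA and 1291 of the 10730 lncRNA probes in this range. In both spots the level was higher at 16 h than at 8 h for 41 of the 60 mRNA and 47 of the 58 lncRNA probes with 2 spots. The rule uses the 16 h level, and this was not counted over other probes, so nothing is read from it.

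**Figure D5:**
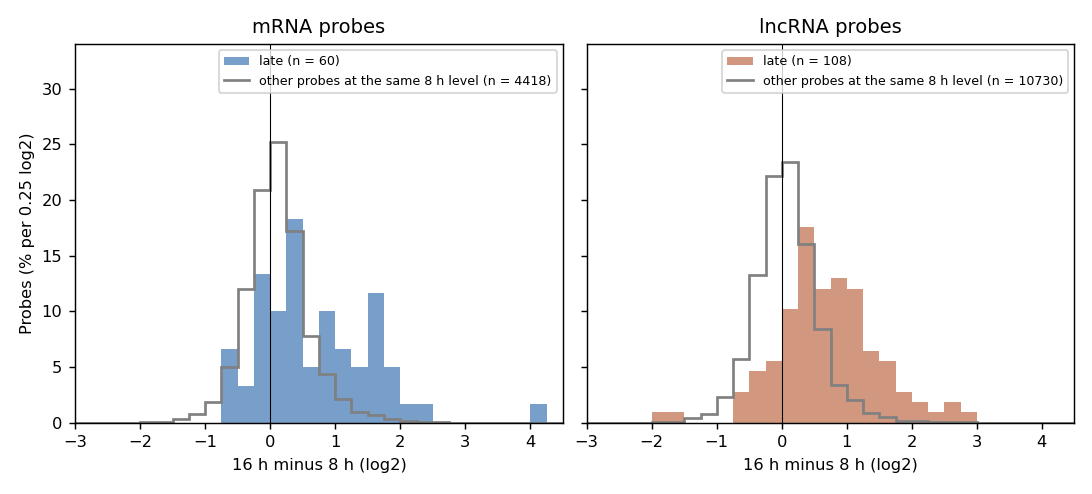
Distribution of the log2 difference between 16 h and 8 h for late probes (filled) and for other probes in the same range of 8 h levels (line). Values are a percentage of each set in steps of 0.25. The late probes lie to the right, with medians of 0.49 for mRNA and 0.66 for lncRNA against 0.09 and 0.06.

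The widest rises after 8 h were those of A_55_P2174582, with a log2 difference of 4.15 ± 0.15 (combined scanner error), and of the lncRNA NONMMUT050936, with 2.75 ± 0.34. The latter has 1 spot, whose intensity was 2.62, 2.96, 13.5 and 81.0 at 0, 4, 8 and 16 h, so that it was at the limit at 8 h. The RefSeq model XR_875711.1 had 2.66 ± 0.22, with intensities of 4.06, 11.5, 16.8 and 95.1. NONMMUT036704, at 9.92, 8.50, 26.3 and 98.4, rose 4.19-fold in the same interval.

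A passing rise was seen in 2 lncRNAs, both with 1 spot. Clone 9330015F20 had intensities of 2.64, 3.0, 70.1 and 18.6, and was 3.36-fold lower at 16 h than at 8 h. NONMMUT065029 had 6.32, 2.82, 78.8 and 24.1 and was 2.92-fold lower. Their rise from 0 h to 8 h was at least 5.83-fold and 6.55-fold. No replicate spot exists for either.

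Transcripts that were above background from 4 h on are set beside the late ones as a description only, because the marks that define these groups favour a lower bound and a later gain in a group that passes the limit later. This earlier group, chosen with the same limits, held 70 mRNA and 106 lncRNA probes, and 35 mRNA and 97 lncRNA probes passed the limit at 16 h alone. The median bound of 16 h over 0 h was 5.93-fold for mRNA and 4.04-fold for lncRNA in the earlier group, 3.62-fold and 2.76-fold in the late group, and 2.0-fold and 2.21-fold in the group of 16 h alone. Between 8 h and 16 h the earlier group had median log2 differences of 0.16 for mRNA and 0.28 for lncRNA (0.13 over its 70 lncRNA probes with 2 spots), and 57.1% and 64.2% of its probes were higher at 16 h, against 76.7% and 85.2% of the late ones. In the earlier group 12 mRNA and 5 lncRNA probes fell by more than 2-fold after 8 h, against 0 and 2. In the opposite direction, 32 mRNA (0.0820%) and 96 lncRNA probes (0.166%) were above background at 0 h and 4 h only. They were below it at 8 h and 16 h, with a fall of over 2 on the log2 scale. Among lncRNA probes with 2 spots the number was 43 (0.111%).

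Close to the limit of the rule, the last late mRNA probes had log2 differences between 16 h and 0 h of 2.09 and 2.10, and the first left out had 1.99 and 1.90. For lncRNA the last ones inside were clone A330033I04 with 2.01, whose intensities were 6.38, 9.51, 13.6 and 21.3, and the Syne4 clone with 2.01. Just outside were NONMMUT046322 with 1.99, at 11.7, 7.29, 28.8 and 38.3, and XR_373573.2 with 1.98, at 5.16, 3.27, 17.2 and 16.9. The probes on either side of the limit had similar courses. Of the probes that met the conditions on background alone, 60 of 79 mRNA and 108 of 245 lncRNA probes passed the limit.

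None of the 168 late probes is among the normalized log2 values that the authors deposited, which hold 30680 of the 39027 mRNA probes and 40236 of the 57936 lncRNA probes. The authors describe 30680 mRNAs as detected. A choice by detection would leave out dim probes, which the rule demands at 0 h and 4 h. How the deposited probes were chosen was not tested, so nothing is read from their lack of late probes. Every value given here comes from the scanner intensities.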

How the data were processed

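The authors deposited scanner intensity values, 1 file per array, which the file headers credit to Agilent Feature Extraction 11.5.1.1. Local background had been removed from each spot, and the arrays had not been scaled to each other. The authors also deposited log2 values of the same arrays, which hold none of the late probes. Control spots and spots marked as outliers were left out, the log2 intensity was averaged over a probe's spots, and each array was set relative to its 75th percentile across 97836 probes. A probe whose name begins with A_ counted as mRNA and any other probe as lncRNA. Samples were grouped by the time in the labels, with 1 array per group, so no test was made; precision rests on signal over background, on spots and on the error the scanner gives. Bounds were computed as stated in the text. The build in the scanner headers, mm9, differs from that of the RefSeq tables, GRCm38.p6, which were used for names, neighbours and promoters.

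Genes were named by these rules: in each class the highest bounds, the probes beside the limit, the largest and smallest differences after 8 h, and every late probe paired with a gene that is listed or has a listed neighbour, or that has another probe. Naming all 9 probes paired with a gene, A_51_P215559 apart from the rest, and fewer probes than the rules allow was decided after the values were seen. The members and gene lists were chosen with earlier results of these data known. Alternatives were normexp with an offset of 50, quantile normalization, another percentile, outlier spots kept, other marks, other limits and the deposited values. Python 3.11.15, numpy 2.4.6, pandas 2.3.3, matplotlib 3.10.9, R 4.3.3 and limma 3.58.1 were used.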

Additional observations from a re-analysis of the deposited data

How the results depend on the processing

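The number of late probes changed most with normexp background correction. Its offset of 50 is added to every spot, while the median intensity of late probes at 16 h was 38.8 for mRNA and 29.6 for lncRNA. For most of them this offset by itself makes a log2 difference over 2 hard to reach. Its part in the lower number was not separated from that of the background correction. With normexp background correction (offset 50), which shrinks the differences of dim probes, 3 mRNA and 1 lncRNA probes were late (0.00769% and 0.00173%), namely the 3 mRNA probes with the highest bounds and ENSMUST00000186238. Their median bounds were 4.74-fold and 4.46-fold, their median log2 differences between 16 h and 8 h 1.53 and 1.00, and 2 and 1 were over 2-fold higher at 16 h. These medians rest on 3 and 1 probes. Over the 60 and 108 late probes, normexp gave median log2 differences between 16 h and 0 h of 0.88 for mRNA and 0.74 for lncRNA, with 24 of each class over 2-fold, and between 16 h and 8 h of 0.29 and 0.31, lower than the 0.49 and 0.66 without it. With the looser scanner mark in place of the background limit, 17 mRNA and 48 lncRNA probes were late (0.0436% and 0.0829%), of which 9 and 10 were among the 60 and 108. Their median bounds were 12.0-fold and 6.73-fold, their median log2 differences after 8 h 1.31 and 1.10, and 9 mRNA probes rose over 2-fold. When 1 spot above background sufficed at 8 h and 16 h, 95 mRNA probes were late (0.243%), with a median bound of 2.69-fold and 36 over 2-fold higher, and the lncRNA share was 0.230%. With 2 spots required, 58 lncRNA probes were late (0.150%), with a median bound of 3.24-fold and 20 over 2-fold higher. A limit of 1 gave 203 late lncRNA probes (0.350%) and a mRNA share of 0.200%, median bounds of 2.95-fold for mRNA and 2.24-fold for lncRNA, and a median lncRNA difference of 0.41 after 8 h. A limit of 3 gave 36 and 50 probes (0.0922% and 0.0863%), median bounds of 4.68-fold and 3.85-fold, median differences of 0.91 and 0.86, and 22 lncRNA probes over 2-fold higher. Quantile normalization shared 59 of the 60 mRNA and 101 of the 108 lncRNA probes, the percentile over detected probes 60 and 102, and outlier spots kept 60 and 108; none of these moved a count by over 1.5 times. The class with the larger share of all probes changed: it was lncRNA by default, and mRNA with 2 spots, with 1 spot sufficing, with a limit of 3 and with normexp. The deposited log2 values gave no value, since they hold no late probe. Signal over background limits every bound. No paired analysis was possible because each time point has 1 array.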
